A study of Mus musculus with 8 samples.

Results

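Histone genes were described in wounded mouse corneas with and without Opn5, the gene of a light-sensing opsin. The members were the 26 of 16091 genes in the deposited table whose symbol begins with Hist1h, Hist2h, Hist3h, Hist4h, H1f, H2af or H3f. Of these, 14 carried a Hist name and belong to the replication-dependent, clustered histone genes. The other 12 carried an H1f, H2af or H3f name and form the replacement class here. Its counts and medians include the processed pseudogenes H3f3a-ps1 and H3f3c. The GENCODE M21 annotation holds 70 genes with the first kind of name and 21 with the second, and those outside the table were not analysed here. All 26 members passed the filter on low values.

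The study compared 4 Opn5-null corneas (genotype Opn5-/-) with 4 wild-type corneas, and the libraries of each genotype are lettered A to D in the labels. Every cornea, wild-type ones included, had its epithelium removed by debridement 12 hours before collection, so no unwounded tissue was part of the comparison. Total RNA of the whole tissue was depleted of ribosomal RNA and made into stranded libraries. The labels give neither strain nor age, do not say whether the samples came from separate animals, and do not explain the word Light in the sample titles. If the libraries share animals, the p-values measure only the spread between these samples.

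Opn5 itself was not analysed here, so the genotypes rest on the labels. Recovered library totals ran from 21111715 to 28219234 reads. Krt12 and Pax6 of the corneal epithelium and Kera of the keratocytes were detected in every library, which bears on the tissue label. Krt12 spanned 15836 to 85007 normalized counts in Opn5-null libraries and 91673 to 189385 in wild-type libraries, and Opn5-null D was the lowest.

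Histones are the proteins around which nuclear DNA is wound. H2A, H2B, H3 and H4 build the nucleosome core, and linker histone H1 binds the DNA between cores. The clustered genes are transcribed mainly while DNA is being copied, and most of their mRNAs end in a short hairpin, the histone stem-loop, in place of a poly(A) tail. The stem-loop binding protein SLBP and the U7 small nuclear RNP direct that cleavage. Replacement histones come from scattered genes with polyadenylated mRNAs and are made through the whole cell cycle. A debrided cornea is first covered by migrating epithelial cells, and cell division follows.

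The stem-loop was searched on the sense strand of annotated transcripts, since it marks which members carry the hallmark of a replication-dependent mRNA. It was present in 10 of 14 clustered members (71.4%), in 1 of 12 replacement members (8.33%) and in 134 of the 55450 genes with an annotated transcript (0.242%). The clustered members with no match were Hist1h1a, Hist1h1b, Hist1h2bc and Hist2h2be. A hairpin past an annotated end would be missed, so a missing match does not show that a gene lacks it. The annotated transcripts of Hist1h1a and Hist1h1b are only 741 and 743 bases long. The replacement member with a match was H2afx, which encodes the H2A.X variant that is phosphorylated at DNA breaks. The 3 clustered genes that were lower in Opn5-null corneas and had a match are shown with Hist1h4d and H2afx, 5′ to 3′ as DNA, with the 16 bases of the stem-loop in capitals.
Hist1h1c: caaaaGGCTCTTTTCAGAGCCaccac
Hist1h1d: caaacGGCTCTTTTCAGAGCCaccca
Hist1h2bg: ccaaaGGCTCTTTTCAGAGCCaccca
Hist1h4d: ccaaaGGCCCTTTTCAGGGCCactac
H2afx: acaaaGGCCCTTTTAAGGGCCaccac
In GRCm38 these stretches lie on the plus strand at chr13:23739507-23739532 for Hist1h1c, chr13:23555782-23555807 for Hist1h1d, chr13:23571838-23571863 for Hist1h2bg, chr13:23581945-23581970 for Hist1h4d and chr9:44335235-44335260 for H2afx. All lie in the 3′ UTR, and their stem-loops start 27 to 49 bases past the coding end. The same 16 bases stood in Hist1h1c, Hist1h1d and Hist1h2bg.

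The annotated transcript did not stop at the hairpin. It went on for 840 bases in Hist1h1c, 4884 in Hist1h1d and 155 in Hist1h2bg. Across the 10 clustered members with a match, the stretch after it had a median of 996.5 bases, and in 9 of them it was over 100 bases long. Among the 53 coding clustered genes not analysed here, 36 had a match, with a median of 46.5 bases after it and over 100 bases in 14.

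Promoter sequence was at hand from RefSeq (GRCm38.p6) for 21 members, 11 clustered and 10 replacement, from 250 bases before to 50 after the start. Promoters are shown for 3 of the lower genes, 1 each of linker H1, core H2B and the H2A.Z variant, since these differ in the motifs they hold. Capitals mark matches on either strand to the box CCAAT, to TATAAA of the TATA box, to the H1 box AAACACA and to ATTTGCAT, the octamer of H2B promoters.
Hist1h1c: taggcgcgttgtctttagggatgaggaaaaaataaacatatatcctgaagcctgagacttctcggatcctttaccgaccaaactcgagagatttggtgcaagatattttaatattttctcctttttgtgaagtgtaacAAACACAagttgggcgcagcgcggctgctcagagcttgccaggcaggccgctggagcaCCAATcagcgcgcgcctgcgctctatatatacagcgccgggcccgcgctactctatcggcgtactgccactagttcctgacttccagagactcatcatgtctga
Hist1h2bg: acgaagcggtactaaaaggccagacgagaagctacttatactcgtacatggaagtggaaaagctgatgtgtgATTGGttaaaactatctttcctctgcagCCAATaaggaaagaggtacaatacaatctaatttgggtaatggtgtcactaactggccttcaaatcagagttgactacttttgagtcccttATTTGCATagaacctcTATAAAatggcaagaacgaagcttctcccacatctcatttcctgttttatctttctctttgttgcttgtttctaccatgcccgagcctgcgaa
H2afz: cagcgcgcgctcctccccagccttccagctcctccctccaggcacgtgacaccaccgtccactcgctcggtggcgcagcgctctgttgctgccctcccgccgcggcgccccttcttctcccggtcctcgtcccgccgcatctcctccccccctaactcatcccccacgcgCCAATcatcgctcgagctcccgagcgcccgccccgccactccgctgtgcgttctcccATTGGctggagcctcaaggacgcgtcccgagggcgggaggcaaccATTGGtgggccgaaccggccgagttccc
They span chr13:23738557-23738856, chr13:23571150-23571449 and chr3:137864237-137864536, all on the plus strand. AAACACA stood in 4 of 11 clustered members, all of them H1 genes (Hist1h1b, Hist1h1c, Hist1h1d and Hist1h1e), in 1 of 10 replacement members and in 7.18% of the 32851 RefSeq promoters. ATTTGCAT stood in 4 of 11 clustered members, Hist3h2a, Hist1h2bb, Hist1h2be and Hist1h2bg, in 1 of 10 replacement members and in 1.74% of promoters. TATAAA was found in 8 of 11 clustered and 1 of 10 replacement members, against 13.6% of promoters. CCAAT was found in 10 of 11 clustered and 6 of 10 replacement members, against 37.4% of promoters. None of the 4 motifs contains another. A match is a stretch of letters and not a measured binding site.

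Clustered histone genes were lower in Opn5-null corneas where they differed. Of the 14 clustered members, 4 fell (Hist1h1c, Hist1h1d, Hist1h2bc and Hist1h2bg), none rose and 10 did not pass the test (limma on log2(normalized count + 1), adjusted p below 0.05 over 16085 genes). Of the 12 replacement members, H2afz fell, none rose and 11 did not pass. Over all genes tested, 13.5% were called lower and 18.8% higher in the same fit, beside 28.6% lower among the clustered and 8.33% lower among the replacement members. The log2 difference, Opn5-null minus wild-type, had a median of -0.49 over the clustered members, -0.13 over the replacement members and -0.02 over all genes, and was negative in 12 of 14, 8 of 12 and 52.1% of them. Of all calls 58.2% were higher in Opn5-null corneas, against 40.3% under quantile and 40.8% under upper-quartile scaling. Without Opn5-null D the clustered median was -0.26 and the replacement median -0.08, and the replacement median was -0.23 under quantile and -0.24 under upper-quartile scaling. Without both libraries lettered D, 2 clustered members (Hist1h1c and Hist1h2bg) and 1 replacement member (H2afz) were called lower. The difference between the classes was not tested. In these whole-tissue samples fewer cells of a type and less histone RNA per cell cannot be told apart.

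**Figure D1:**
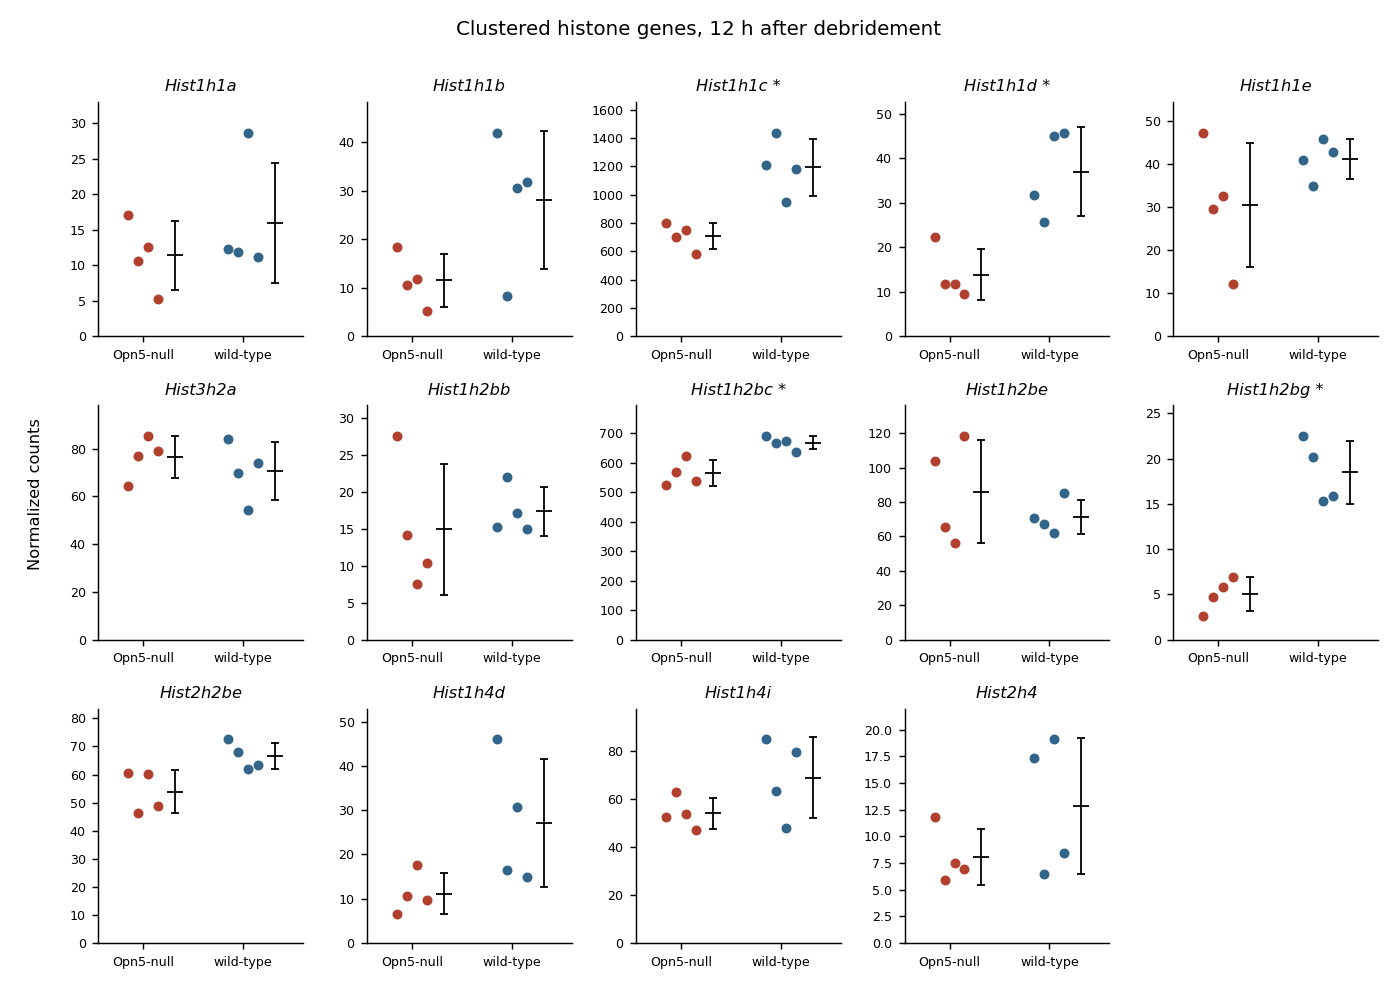
Normalized counts of the clustered histone members in each library, Opn5-null left of wild-type. A bar marks the mean ± SD (n = 4 each) and an asterisk marks called genes. Hist1h1c, Hist1h1d, Hist1h2bc, Hist1h2bg and the uncalled Hist2h2be show no overlap between genotypes, with every Opn5-null library below every wild-type one.

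Linker histone H1 compacts chromatin, and its clustered genes encode H1.1 to H1.5 proteins that most dividing cells make together. All 5 measured genes had negative differences, from -1.38 to -0.45 on the log2 scale, and 2 of the 5 fell. Hist1h1c, which encodes H1.2, measured 800.1, 702, 748 and 584 normalized counts in Opn5-null A to D, against 1208, 1438, 946 and 1178 in wild-type A to D. The highest Opn5-null library stayed below the lowest wild-type one, and Opn5-null D was the lowest of all. Its means were 709 ± 92.2 in Opn5-null against 1193 ± 201 in wild-type corneas (SD, n = 4 each), a log2 difference of -0.74 ± 0.14 (SE) with an adjusted p of 0.00534. The gene lies at chr13:23738808-23740367.

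Hist1h1d, which encodes H1.3, measured 22.4, 11.9, 11.7 and 9.58 normalized counts in Opn5-null A to D, against 31.7, 25.7, 44.9 and 45.8 in wild-type A to D. Here too the groups did not overlap, and Opn5-null A lay closest to the wild-type range. The means were 13.9 ± 5.76 in Opn5-null against 37.0 ± 9.92 in wild-type corneas, a log2 difference of -1.38 ± 0.32 with an adjusted p of 0.0117. These values rest on 52 recovered reads in all Opn5-null libraries and 155 in all wild-type libraries. Hist1h1c and Hist1h1d kept their calls when any single library was left out. Without both libraries lettered D, Hist1h1d lost its call and Hist1h1c kept it.

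The other clustered H1 genes did not pass the test. Hist1h1b, which encodes H1.5 and is described in full because of its values, measured 18.4, 10.7, 11.7 and 5.22 normalized counts in Opn5-null A to D, against 41.9, 8.27, 30.6 and 31.8 in wild-type A to D. Wild-type B lay below 3 of the 4 Opn5-null libraries, and the other wild-type libraries lay above all of them. The log2 difference was -1.13 ± 0.54 (adjusted p = 0.136), and without wild-type B the adjusted p was 0.0256. Hist1h1e (H1.4) had a difference of -0.56 and Hist1h1a (H1.1) one of -0.45, and in both the genotypes overlapped. Without Opn5-null D these differences were -0.19 for Hist1h1e and -0.15 for Hist1h1a, and without wild-type C that of Hist1h1a was -0.15. Hist1h1e shares exonic sequence on the same strand with Hist1h2be, so reads there could belong to either.

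Of the H2A genes in the clusters, the table held Hist3h2a alone. It averaged 76.5 ± 8.77 normalized counts in Opn5-null against 70.5 ± 12.2 in wild-type corneas, with 64.5, 77.0, 85.4 and 79.2 in Opn5-null A to D, against 83.9, 69.8, 54.5 and 73.8 in wild-type A to D. The groups overlapped and the log2 difference was 0.13 ± 0.18 (adjusted p = 0.615, 95% interval -0.28 to 0.53), turning to -0.03 under quantile scaling. Its exons overlap those of Trim17 on the same strand.

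Of the 5 H2B genes, whose products pair with H2A in the nucleosome core, 2 fell. Hist1h2bg measured 2.63, 4.74, 5.86 and 6.96 normalized counts in Opn5-null A to D, against 22.5, 20.2, 15.3 and 15.9 in wild-type A to D. Every Opn5-null library was below 7 and every wild-type library above 15. The means were 5.05 ± 1.85 in Opn5-null against 18.5 ± 3.47 in wild-type corneas, a log2 difference of -1.73 ± 0.33 with an adjusted p of 0.00493, the most negative of any member. The counts behind it were small, 21 recovered reads over the Opn5-null libraries and 77 over the wild-type libraries, and the pseudocount of 1 reduces the fold of a gene this low. The gene lies at chr13:23571396-23572013, and 432 bases of its transcript match Hist1h2bf at 97.9% identity, so the split of reads between near copies is uncertain. The member Hist1h2be matches Hist1h2bg over 431 bases at 97.7% identity. Hist1h2be went the other way, at 85.9 ± 30.0 in Opn5-null against 71.2 ± 9.84 in wild-type corneas, with overlapping groups. Whether reads of one were counted to the other was not tested. The Hist1h2bg call held when any single library was left out.

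Hist1h2bc had the smallest difference among the called members. It measured 525, 570.1, 623 and 537 normalized counts in Opn5-null A to D, against 691, 668, 675 and 638 in wild-type A to D. The groups did not overlap, although Opn5-null C and wild-type D lay close together. The means were 564 ± 44.0 in Opn5-null against 668 ± 22.3 in wild-type corneas, a log2 difference of -0.25 ± 0.08 with an adjusted p of 0.044. Leaving out any library other than Opn5-null C ended the call, with adjusted p up to 0.123 without wild-type A. A stretch of 382 bases matches Hist1h2br at 99.5% identity.

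The remaining H2B genes did not pass. Hist2h2be measured 60.5, 46.2, 60.3 and 48.8 normalized counts in Opn5-null A to D, against 72.6, 68.0, 62.1 and 63.5 in wild-type A to D, with no overlap and a log2 difference of -0.31 ± 0.16 (adjusted p = 0.172). Hist1h2be measured 104, 65.2, 56.1 and 118 in Opn5-null A to D, against 70.6, 67.1, 62.1 and 85.0 in wild-type A to D. Opn5-null A and D were above every wild-type library and B and C were inside or below the wild-type range, for a log2 difference of 0.21 ± 0.26 (adjusted p = 0.561), which was 0.10 with Opn5-null A left out and 0.03 with Opn5-null D left out. Hist1h2bb had a difference of -0.34 with overlapping groups.

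Histone H4 is the partner of H3 in the nucleosome core. None of the 3 H4 genes passed the test, and all 3 differences were negative. Hist1h4i, the highest of them per kilobase of exon, measured 52.6, 62.8, 53.6 and 47.0 normalized counts in Opn5-null A to D, against 84.9, 63.4, 47.8 and 79.4 in wild-type A to D, a log2 difference of -0.32 ± 0.21 (adjusted p = 0.277). Wild-type C lay among the Opn5-null libraries and the other wild-type libraries lay above them. Hist1h4d, whose stem-loop is printed above and whose values led to its being described, measured 6.58, 10.7, 17.6 and 9.58 in Opn5-null A to D, against 46.0, 16.5, 30.6 and 14.9 in wild-type A to D. Only Opn5-null C reached into the wild-type range, and the log2 difference was -1.14 ± 0.43 (adjusted p = 0.069). Without Opn5-null C its adjusted p was 0.039. Hist2h4 averaged 8.07 ± 2.60 in Opn5-null against 12.8 ± 6.34 in wild-type corneas, with overlapping groups.

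Replacement histones take the place of the clustered ones in particular chromatin. Among the replacement H2A variants, all 6 differences were negative, from -0.57 to -0.09, apart from H2afy when Opn5-null D was left out, and 1 of the 6 fell. That one was H2afz, which encodes H2A.Z, the variant found beside the starts of active genes. It measured 2446, 3123, 3470.5 and 1951 normalized counts in Opn5-null A to D, against 4189.6, 4217, 3871 and 3661 in wild-type A to D. The groups did not overlap, and Opn5-null D was the lowest library. The means were 2748 ± 680.5 in Opn5-null against 3985 ± 267 in wild-type corneas, a log2 difference of -0.57 ± 0.17 with an adjusted p of 0.0332. The call was lost when Opn5-null A or any single wild-type library was left out, with adjusted p from 0.0586 to 0.0885. H2afz lies at chr3:137864487-137866922, and 387 bases of it are identical in Gm8203.

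H2afx measured 439.6, 489.5, 634 and 265 normalized counts in Opn5-null A to D, against 683, 651, 536 and 601 in wild-type A to D, and is given in full because of its stem-loop. Opn5-null C lay inside the wild-type range and the other Opn5-null libraries lay below it. The log2 difference was -0.50 ± 0.24 (adjusted p = 0.144), and without Opn5-null C the adjusted p was 0.0371, whereas without Opn5-null D the difference was -0.26. H2afy, which encodes macroH2A1, a large variant of silenced chromatin, measured 3015, 3109, 3371 and 2184 in Opn5-null A to D, against 3216, 3080.1, 3112 and 2872 in wild-type A to D. The groups overlapped, with a log2 difference of -0.09 ± 0.13 (adjusted p = 0.627, 95% interval -0.39 to 0.21), and without Opn5-null D the difference was 0.04. H2afv, which encodes the second H2A.Z protein, averaged 243 ± 57.2 in Opn5-null against 267 ± 18.0 in wild-type corneas. H2afj averaged 334 ± 52.4 in Opn5-null against 370.2 ± 45.9 in wild-type corneas, and H2afy2, which encodes macroH2A2, averaged 411 ± 145 in Opn5-null against 494 ± 36.0 in wild-type corneas. None of these passed the test.

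**Figure D2:**
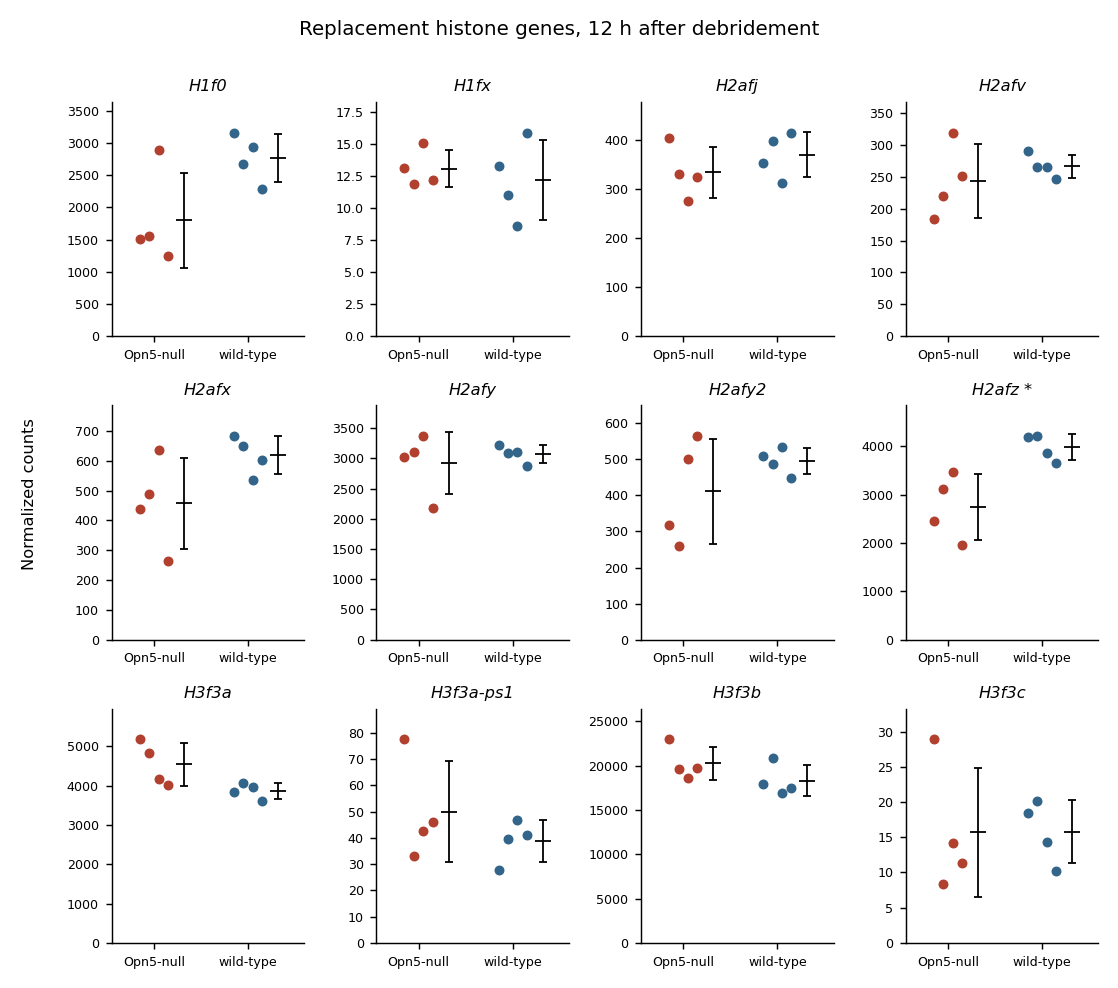
Normalized counts of the replacement histone members in each library, Opn5-null left of wild-type. A bar marks the mean ± SD (n = 4 each) and an asterisk marks the called gene. H2afz alone separates the genotypes, and H1f0 shows 3 Opn5-null libraries below the wild-type range with Opn5-null C inside it.

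H3f3a and H3f3b both encode H3.3, the variant placed into chromatin outside DNA replication. No H3 member passed the test. H3f3b measured 23004, 19689, 18609 and 19717 normalized counts in Opn5-null A to D, against 17913, 20875, 16912 and 17540.4 in wild-type A to D, a log2 difference of 0.15 ± 0.10 (adjusted p = 0.288) that turned to -0.06 under quantile scaling. Wild-type B lay above all but 1 of the Opn5-null libraries. H3f3a measured 5185, 4824, 4164 and 4012 in Opn5-null A to D, against 3832, 4063, 3956 and 3599 in wild-type A to D. Only Opn5-null D lay within the wild-type range, and the log2 difference was 0.23 ± 0.10 (adjusted p = 0.1). Without Opn5-null D the adjusted p was 0.0342, the single higher call that leaving out a library gave. The processed pseudogenes H3f3a-ps1 and H3f3c, with means of 49.9 ± 19.3 and 15.7 ± 9.16 in Opn5-null corneas and 38.8 ± 8.08 and 15.8 ± 4.43 in wild-type corneas, match H3f3a at 98.3% and 99.0% identity, so their reads may come from it.

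The replacement linker histone H1f0, whose protein H1.0 accumulates in cells that have stopped dividing, is given in full because of its values. It measured 1513, 1550.4, 2892 and 1244 normalized counts in Opn5-null A to D, against 3159, 2676, 2932 and 2290 in wild-type A to D. Opn5-null C lay among the wild-type libraries and the other 3 lay below all of them. The log2 difference was -0.69 ± 0.24 (adjusted p = 0.061). Without Opn5-null C it was -0.94 with an adjusted p of 0.0011. H1fx, which encodes H1.10, averaged 13.1 ± 1.44 in Opn5-null against 12.2 ± 3.11 in wild-type corneas.

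**Figure D3:**
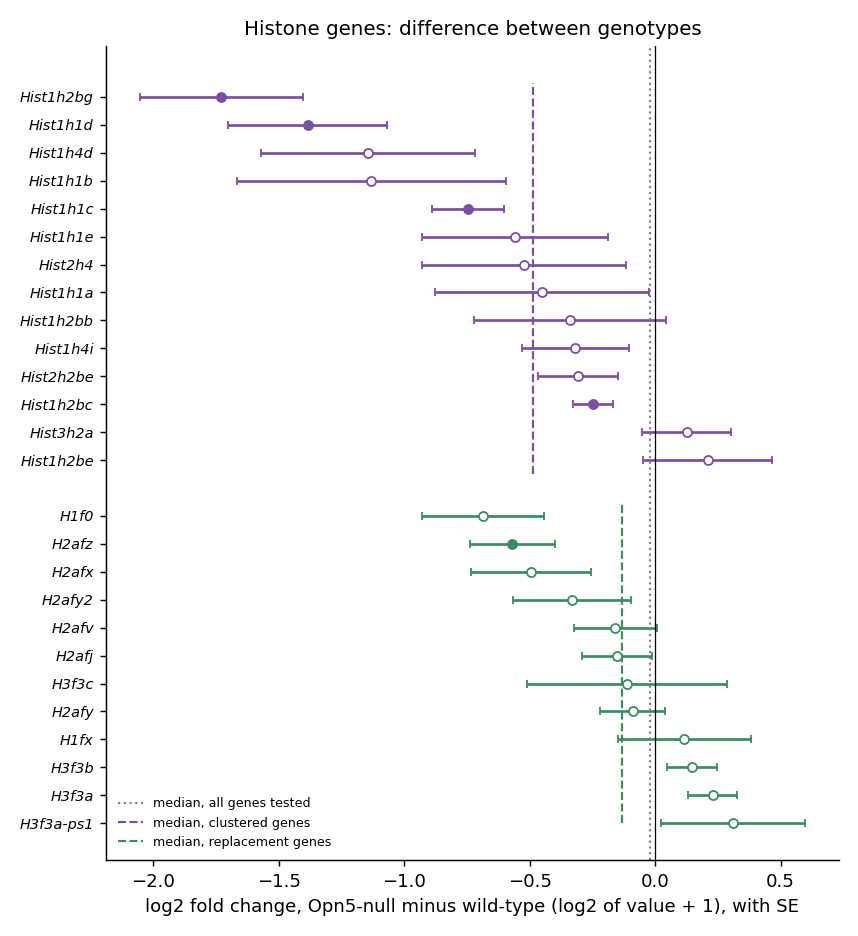
Log2 difference, Opn5-null minus wild-type, of each of the 26 members, with a bar of ± SE and grouped by class. Filled points mark adjusted p below 0.05. Of the clustered members 12 of 14 lie below 0, and the called points are Hist1h2bg, Hist1h1d, Hist1h1c and Hist1h2bc among the clustered and H2afz among the replacement genes.

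Counting members whose genotypes did not overlap gave 5 clustered genes lower (Hist1h1c, Hist1h1d, Hist1h2bc, Hist1h2bg and Hist2h2be), 1 replacement gene lower (H2afz) and none higher. Over all genes 18.1% were lower without overlap and 20.3% higher. In edgeR's quasi-likelihood test on recovered reads, the same 5 members were called lower as in the limma fit and none higher, of 25 tested, beside 12.8% lower and 18.9% higher over all genes. In the authors' deposited table, 6 clustered and 1 replacement members had an adjusted p below 0.05 and were lower, and none was higher, beside 16.9% lower and 21.9% higher over all genes.

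Levels per kilobase of annotated exon, in normalized counts, put the H3.3 gene H3f3b first, at 6806 ± 640 in Opn5-null against 6153 ± 591 in wild-type corneas. H2afz followed with 1547 ± 383 in Opn5-null against 2244 ± 150.2 per kilobase in wild-type corneas. The next were H3f3a with 1298 ± 158 in Opn5-null against 1102 ± 56.9 in wild-type corneas, and H1f0 with 876 ± 360.5 in Opn5-null against 1345 ± 181 in wild-type corneas. H3f3a and H1f0 stood in opposite order in the 2 genotypes, and in Opn5-null corneas the spreads of H2afz and H3f3a, and of H3f3a and H1f0, overlapped. The clustered genes led with Hist1h2bc at 488 ± 38.1 in Opn5-null against 578 ± 19.3 in wild-type corneas, and Hist1h1c at 454 ± 59.1 in Opn5-null against 764 ± 129 in wild-type corneas. In Opn5-null corneas these neighbours lay within their spread of each other, whereas in wild-type corneas Hist1h1c was above Hist1h2bc. Every other clustered gene was below 100 per kilobase in both genotypes.

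Summed over the class, clustered members reached 1761, 1622, 1734 and 1481 normalized counts in Opn5-null A to D, against 2439, 2521, 2080.1 and 2304 in wild-type A to D. The sums did not overlap, and their means were 1649 ± 128 in Opn5-null against 2336 ± 193 in wild-type corneas. Replacement members summed to 36630.2, 33651, 34310.0 and 30583 in Opn5-null A to D, against 34204, 36781, 32500.1 and 31741 in wild-type A to D. The groups overlapped, with means of 33794 ± 2493 in Opn5-null against 33807 ± 2234 in wild-type corneas. Clustered genes thus made up 4.65 ± 0.106% of all member counts in Opn5-null against 6.46 ± 0.333% in wild-type corneas. Hist1h1c and Hist1h2bc carried most of the clustered sum, 77.1 ± 1.92% in Opn5-null against 79.5 ± 2.71% in wild-type corneas. Without Hist1h1c and Hist1h2bc, the clustered sum was 377 ± 39.6 in Opn5-null against 475 ± 52.6 in wild-type corneas. There the groups overlapped, with Opn5-null A at 436 and wild-type B at 414. H3f3b carried 54.2 to 64.5% of the replacement sum in Opn5-null and 52.0 to 56.8% in wild-type libraries. Without H3f3b, the replacement sum was 13539 ± 2000 in Opn5-null against 15496.5 ± 910 in wild-type corneas, with overlapping groups. By family, the clustered H1 sum was 776 ± 121 in Opn5-null against 1315 ± 173 in wild-type corneas, the H2B sum 724 ± 21.8 in Opn5-null against 842 ± 23.4 in wild-type corneas, and the H4 sum 73.2 ± 7.44 in Opn5-null against 109 ± 27.2 in wild-type corneas.

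**Figure D4:**
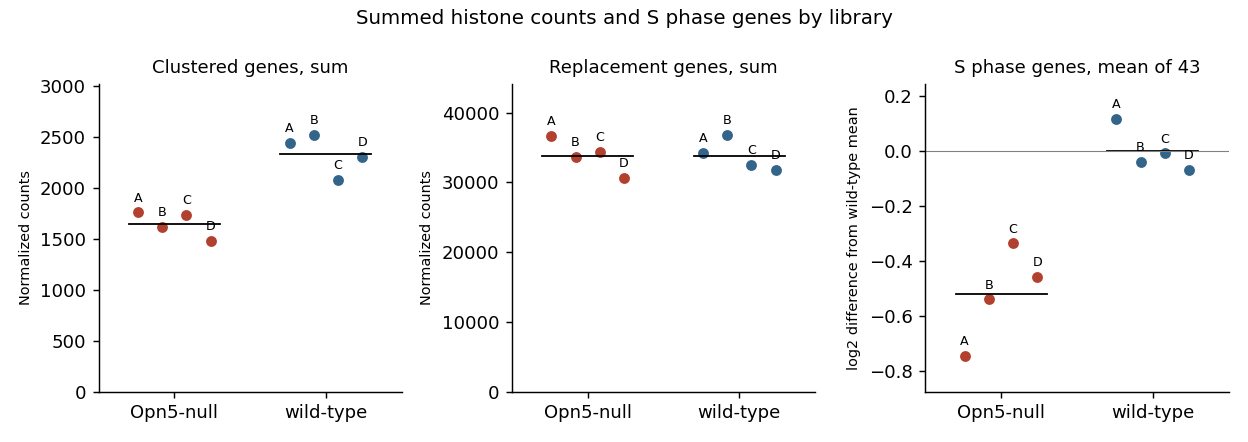
Summed normalized counts of the clustered and of the replacement histone members in each library, lettered, Opn5-null left of wild-type, with a line at the mean. A further panel shows the log2 difference from the wild-type mean, averaged over the 43 S phase genes. The clustered sums of the Opn5-null libraries lie between 1481 and 1761 and all wild-type ones above 2080, while the replacement sums overlap.

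Genes of DNA replication, with which clustered histone synthesis is timed, were lower as well. Of 43 S phase genes, 32 fell, none rose and 11 did not pass. That is 74.4% lower, beside 13.5% lower and 18.8% higher over all genes. Their median log2 difference was -0.50 against -0.02 over all genes. Without wild-type A, 21 of them were called lower. The list had been seen to be lower in these libraries, so it is not independent evidence of its direction.

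Pcna, the sliding clamp of DNA polymerase, measured 2327, 2667, 2747 and 3032 normalized counts in Opn5-null A to D, against 4721, 4636, 4217 and 4199 in wild-type A to D. No library crossed between the groups, and the log2 difference was -0.73 ± 0.09 (adjusted p = 0.000825). Uhrf1, which carries DNA methylation through replication, averaged 1721 ± 230 in Opn5-null against 2844 ± 284 in wild-type corneas (log2 difference -0.73 ± 0.11, adjusted p = 0.0019). Chaf1b, a subunit of the CAF-1 complex that loads new H3 and H4 behind the fork, averaged 436 ± 53.7 in Opn5-null against 667 ± 29.9 in wild-type corneas (log2 difference -0.62 ± 0.10, adjusted p = 0.00254). Averaged over its genes, the S phase list was lowest in Opn5-null A, at -0.74 from the wild-type mean on the log2 scale. It was highest in Opn5-null C, at -0.33. The mean over the clustered members was lowest in D, at -0.86, and highest in A, at -0.36, so the 2 lists ordered the Opn5-null libraries differently.

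Genes that transcribe and cut histone RNA did not move as a block. Of 29 such genes, 6 fell, 1 rose and 22 did not pass, with a median log2 difference of -0.06. That is 20.7% lower and 3.45% higher, beside 13.5% and 18.8% over all genes. Without Opn5-null A, wild-type A, B, C or D in turn, 2, 1, 2, 3 and 2 of them were called lower, and without Opn5-null D, 2 were called higher. Ccne2, Slbp and Casp8ap2 stand in the S phase list too, and Ccne2 is counted as lower in both lists. Slbp, the stem-loop binding protein, had a difference of -0.19 ± 0.07 (adjusted p = 0.0617), Npat, the activator of histone transcription, -0.20 ± 0.09 (adjusted p = 0.119), and Lsm11, a core protein of the U7 particle, -0.32 ± 0.13 (adjusted p = 0.0955). Cdk2, the kinase that activates NPAT as cells enter S phase, measured 938, 857, 962 and 849 normalized counts in Opn5-null A to D, against 1408, 1319.5, 1275 and 1277 in wild-type A to D. The log2 difference was -0.55 ± 0.07 (adjusted p = 0.000935), and every Opn5-null library lay below every wild-type one. Its cyclin partner Ccne1 averaged 432 ± 58.5 in Opn5-null against 573 ± 21.4 in wild-type corneas, a log2 difference of -0.42 ± 0.11 (adjusted p = 0.0192), which lost its call without wild-type A or C. Cstf2, which encodes the cleavage factor CstF64, averaged 1721 ± 121 in Opn5-null against 2069 ± 98.6 in wild-type corneas, a log2 difference of -0.27 ± 0.07 (adjusted p = 0.0262), and its call was lost without Opn5-null A or B or without wild-type A, B or D.

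The single gene of that list that rose was Zcchc6, a uridylyltransferase that adds U residues to RNA ends. It measured 6635, 4409, 3094 and 5237 normalized counts in Opn5-null A to D, against 2417, 2282, 2418 and 2237 in wild-type A to D, a log2 difference of 1.00 ± 0.20 (adjusted p = 0.00739). Opn5-null C was the lowest Opn5-null library and still above all wild-type ones.

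Of 35 histone chaperone and variant deposition genes, 6 fell, 2 rose and 27 did not pass, and the median log2 difference was -0.05. That is 17.1% lower and 5.71% higher, beside 13.5% and 18.8% over all genes, so the lower share lay near the background. The genes that fell included Chaf1a and Chaf1b of CAF-1. Chaf1b and Nasp, both lower, are also counted in the S phase list. Chaf1a averaged 673 ± 52.4 normalized counts in Opn5-null against 954 ± 58.1 in wild-type corneas (log2 difference -0.50 ± 0.08, adjusted p = 0.00275). The genes that rose were Daxx and Spty2d1. Daxx, the chaperone that deposits H3.3 with ATRX, measured 1625, 1767, 1325 and 2716 in Opn5-null A to D, against 673, 637, 664 and 655 in wild-type A to D. All Opn5-null libraries were above all wild-type ones, with a log2 difference of 1.45 ± 0.19 (adjusted p = 0.000959). Spty2d1, the mammalian relative of the yeast chaperone Spt2, averaged 2929 ± 693 in Opn5-null against 1574 ± 35.7 in wild-type corneas (log2 difference 0.87 ± 0.15, adjusted p = 0.0036). Hira, of the other H3.3 deposition complex, had a log2 difference of -0.17 ± 0.11 (adjusted p = 0.249).

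Markers of other cell types moved with genotype in the same libraries. Over all genes tested, 18.8% were called higher and 13.5% lower, and the 12.5% of corneal epithelial markers called lower lay near that share. All 8 of those markers nonetheless had negative log2 differences, with a median of -1.01 against -0.02 over all genes. Of 10 neutrophil markers 8 rose, with a summed level of 43567 to 138770 normalized counts in Opn5-null and 16916 to 31690 in wild-type libraries. Of 10 monocyte and macrophage markers 9 rose, with sums of 26986 to 44246 in Opn5-null and 6550 to 9163 in wild-type libraries, and 5 of 6 measured lymphocyte markers rose, with sums of 247 to 669 in Opn5-null and 65.4 to 84.9 in wild-type libraries. Corneal epithelial markers summed to 97686 to 403660 in Opn5-null and 486690 to 649230 in wild-type libraries, 1 of 8 passing the test as lower, and Opn5-null D had the lowest sum. Opn5-null D was also the lowest Opn5-null library for 6 of the 14 clustered and 5 of the 12 replacement histones. Keratocyte markers summed to 112170 to 169190 in Opn5-null and 126460 to 141540 in wild-type libraries, with 2 of 6 higher and 2 lower. Of 3 endothelial markers 1 fell, with sums of 16669 to 39490 in Opn5-null and 21182 to 23181 in wild-type libraries. Of 8 measured lens markers 6 fell, with a median log2 difference of -2.19 over the list. Lens sums were 5136 to 15045 in Opn5-null and 5372 to 10282 in wild-type libraries. Most of the highest sum, that of Opn5-null D, was Cryab at 14083 normalized counts, a gene that did not pass the test. The part of these markers in the histone differences was not tested.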

How the data were processed

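The 8 libraries analysed held whole-cornea RNA, 4 Opn5-null and 4 wild-type. The deposited table holds gene counts that the authors divided by 1 size factor per library, a normalized signal called normalized count here; RSEM 1.3.1 is named in the submitters' processing notes, while aligner, build and annotation were not given in the sources used here. Low values showed what 1 read was worth, and 100% of values gave whole reads within 0.001. Precision is limited by the number of libraries and, for low genes, by counting error.

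Values were taken as log2(value + 1) from the deposited table, filtered at 1 or more in at least 4 libraries, and compared with limma 3.58.1 (trend and robust options, R 4.3.3), two-sided, with Benjamini-Hochberg adjustment over all 16085 genes kept. The adjusted p-values and log2 fold changes of the authors' deposited table were used only to count calls. Recovered reads were tested with edgeR 4.0.16 and DESeq2 1.42.0 as alternatives, and the limma script was tested on simulated data. The other alternatives were quantile, upper-quartile and TMM scaling, other filters, thresholds and pseudocount, the letters as a block, and leaving out each library. Leaving out both libraries lettered D was chosen after seeing the data.

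Deviations of same-lettered Opn5-null and wild-type libraries correlated at -0.156, -0.128, 0.138 and 0.131, so the letters were not taken to pair the samples. Replicates differed by 10.2 to 29.6 chi-square units per gene between wild-type libraries and by 44.7 to 196 between Opn5-null libraries, well beyond sampling noise.

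Members, gene lists and tests were chosen with earlier results of these data known. Full values are given for every called member, for the 3 uncalled members of each class with the highest mean, and for up to 4 called genes of lowest p per list, of which 1 is not reported here; others named in full were chosen after their values were seen. Gene coordinates, transcripts and stem-loops came from GENCODE M21 (GRCm38), which held all 26 members, and near copies were sought with BLAST 2.17.0.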

Additional observations from a re-analysis of the deposited data

Results flagged for a closer look

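Within 72 groups of 4 values (each member, sum or share within 1 genotype), 4 had a library set apart from the other 3, where chance alone gives about 1 in 20. Hist1h1a stood at 28.7 normalized counts in wild-type C, above the other wild-type libraries. The clustered sum without Hist1h1c and Hist1h2bc was 436 normalized counts in Opn5-null A, above the other Opn5-null libraries. Clustered genes made up 4.81% of all member counts in Opn5-null C, above the other Opn5-null libraries and still below every wild-type library. Hist1h1c and Hist1h2bc together made up 83.6% of the clustered sum in wild-type B, the highest of the wild-type libraries.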

How the results depend on the processing

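Of the member values recomputed, 473 kept their direction and side of the threshold, 18 lost a call, 13 gained one and 7 changed sign, all 7 in members uncalled with and without the change. Under quantile scaling the log2 differences of Hist3h2a and H3f3b became -0.033 and -0.060, and without both libraries lettered D that of H2afy was 0.012. Leaving out 1 library at a time gave -0.16 to 0.044 for H2afy (above 0 without Opn5-null D), -0.026 to 0.25 for H1fx (below 0 without wild-type C) and -0.44 to 0.12 for H3f3c (above 0 without Opn5-null B or wild-type B). The median of all genes moved from -0.02 to -0.13 on the log2 scale under quantile and under upper-quartile scaling, and the share of calls that were higher in Opn5-null was 40.3% and 40.8% there, against 58.2% as reported. Relative to that shift the clustered median was -0.47 as reported, -0.43 and -0.46. All-gene calls lower numbered 3746 under quantile and 3663 under upper-quartile scaling, against 2175, and at an adjusted p of 0.01 there were 1818 higher and 702 lower. Both scalings gave 2 lower replacement members, the added one being H1f0, and 10 lower histone RNA processing genes, and quantile scaling gave 12 lower chaperone genes. Upper-quartile scaling also called Hist1h4d.

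At 0.01 there were 2 lower clustered members, 0 replacement members, 14 S phase genes, 1 processing gene and 3 chaperone genes lower, and at 0.1 there were 2 lower replacement members and 3 higher processing genes. DESeq2 gave 2 higher processing genes and added calls for Hist1h1b and Hist1h4d. Its counts over all genes, 3516 higher and 2716 lower, equal those of the authors' deposited table, so it adds no separate test to theirs. Without both libraries lettered D, 2 clustered members were lower, Hist1h1c and Hist1h2bg. The fit with a replicate block for the letters gave 2 lower replacement members, H2afz and H1f0, lost Hist1h2bc, and gave 2 lower processing genes.

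Leaving out 1 library at a time gave 3 to 5 lower clustered members, 0 to 3 lower and 0 to 1 higher replacement members, 21 to 37 lower S phase genes, 1 to 7 lower and 1 to 2 higher processing genes, 4 to 6 lower chaperone genes, and 1079 to 2543 lower and 2225 to 3377 higher genes over all. The lowest all-gene and S phase counts came without wild-type A. A filter at 1 CPM left 18 members, without Hist1h2bg. The cause of these changes was not tested. Depth limits the low members most: 8 of 14 clustered and 3 of 12 replacement members averaged under 50 normalized counts.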
